A study of Mus musculus with 8 samples.

Results

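The transcripts described here encode integrin receptors and the proteins that link them to the actin cytoskeleton at focal adhesions. The set held 36 genes picked by symbol from the 50600 genes of the count table. The symbols name families and not measured values, but the choice was made with earlier results of these data known. It comprised 21 integrin subunits and 15 cytoplasmic partners. Of these, 34 reached 10 counts in at least 2 of the 8 libraries and were tested among 14497 genes. *Fermt1*, the epithelial kindlin, had 0 counts in every library, which allows at most 0.0702 to 0.108 CPM (3 counts per library). *Itgb6*, the beta subunit of an epithelial integrin, had 0 counts in the 4 vehicle libraries and 1 or 2 counts in the 4 capmatinib libraries.

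Integrins are heterodimers of an alpha and a beta subunit that bind matrix proteins outside the cell. Talins and kindlins bind the beta tail and switch the receptor on, and the ILK, PINCH and parvin complex, vinculin, zyxin and tensins couple it to actin, while focal adhesion kinase and its partners turn contact with matrix into signals. Cells of the Schwann lineage, in which these tumors arise, are known to use laminin-binding integrins to attach to the basal lamina, whereas receptors for fibrillar collagen are best known from fibroblasts and other mesenchymal cells.

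RNA-seq was performed on mouse malignant peripheral nerve sheath tumor (MPNST) cells, to learn how inhibition of the MET receptor changes transcription and whether p53 alters that response. NF1-MET cells (genotype label WT, for *Trp53*) came from a tumor of a mouse model that was *Nf1* fl/ko and also carried the transgenes lox-stop-loxMET (tg/+) and Plp-creERT (tg/+), the second of which directs recombination to Plp-expressing glia. They carry *Met* amplification and a spontaneous *Cdkn2a* deletion. NF1-MET;sgP53 cells (label *Trp53* KO) were derived from them by lentiviral delivery of Cas9 and a guide against *Trp53* and by puromycin selection, so both lines share the loss of *Nf1*, the *Met* amplification and the *Cdkn2a* deletion. Each line was treated for 24 h with DMSO (0 nM, the vehicle) or with 100 nM capmatinib, a MET kinase inhibitor, giving 4 groups of 2 libraries. The methods describe an empty-vector control for that step, and the labels do not say whether the NF1-MET libraries came from it or from untransduced cells. The sample descriptions of those libraries begin with SEV, which the labels do not explain. Each genotype was a single line, so p53 loss and anything else acquired while the sgP53 line was made cannot be told apart. The labels call the 2 replicates of a group biological and the methods describe treatment in duplicate wells, so the p-values measure only the spread between such wells.

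Libraries held 30116810 to 42781371 counts. *Trp53* stood at 182 and 193 CPM in NF1-MET vehicle, 126 and 128 in NF1-MET capmatinib, 97.5 and 100.0 in NF1-MET;sgP53 vehicle and 68.0 and 68.8 in NF1-MET;sgP53 capmatinib, lower in the sgP53 line in each treatment. CPM values are counts relative to the library total after TMM scaling. Of the Schwann lineage markers, *Gap43* was above 1 CPM. *Sox10*, *S100b*, *Ngfr* and *Cdh19* were under 1 CPM in every group, and the 8 markers of that list summed to values between 21.2 and 23.8 CPM in vehicle and between 6.40 and 7.18 CPM in capmatinib. All 5 fibroblast and mesenchymal markers were above 1 CPM, summing to 3560 to 4480 CPM in vehicle and 16600 to 17000 CPM in capmatinib. Most of that sum was *Col1a1*, at 2450 and 3280 CPM in the vehicle means of the lines and 15400 and 15200 CPM in the capmatinib means. *Pdgfra* stood at 418 and 449 CPM in vehicle and at 326 and 359 CPM in capmatinib, *Pdgfrb* at 181 and 235 against 447 and 472 CPM, *Prrx1* at 509 and 451 against 616 and 596 CPM, and *Twist1* at 41.3 to 45.2 CPM throughout. The part of either marker group in the integrin results was not tested. In bulk RNA, fewer cells of a kind and less RNA per cell cannot be told apart. The noncoding RNA *Gm42418* took 1.11% to 13.1% of counts, and the 36 genes together took 0.713% to 0.809% in vehicle and 1.04% to 1.20% in capmatinib.

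Levels were compared between genes as CPM per kb of exon. *Itgb1*, the beta subunit that pairs with most alpha subunits, was the most abundant in every group, at 422 ± 1.86 CPM per kb in NF1-MET vehicle and 548 ± 5.84 in NF1-MET capmatinib (SD, n = 2). Next in NF1-MET vehicle came *Ilk* (91.8), *Itga5* (77.1), *Vcl* (73.1), *Tln1* (59.1) and *Zyx* (56.4). *Itga6* (44.9), *Itga3* (42.6) and *Itgb5* (41.6) followed. In NF1-MET capmatinib the order below *Itgb1* was *Vcl* (231), *Ilk* (157), *Itga5* (153) and *Itgb5* (132), and *Itga6* had dropped to 9.04. *Itga8* went from 2.26 to 39.3 CPM per kb in the same line. Among the tested receptors the lowest in vehicle were *Itga2* and *Itga11*, at 0.0669 to 0.0921 CPM per kb in both lines. The plot of levels by library shows these spans for the whole set.

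**Figure D1:**
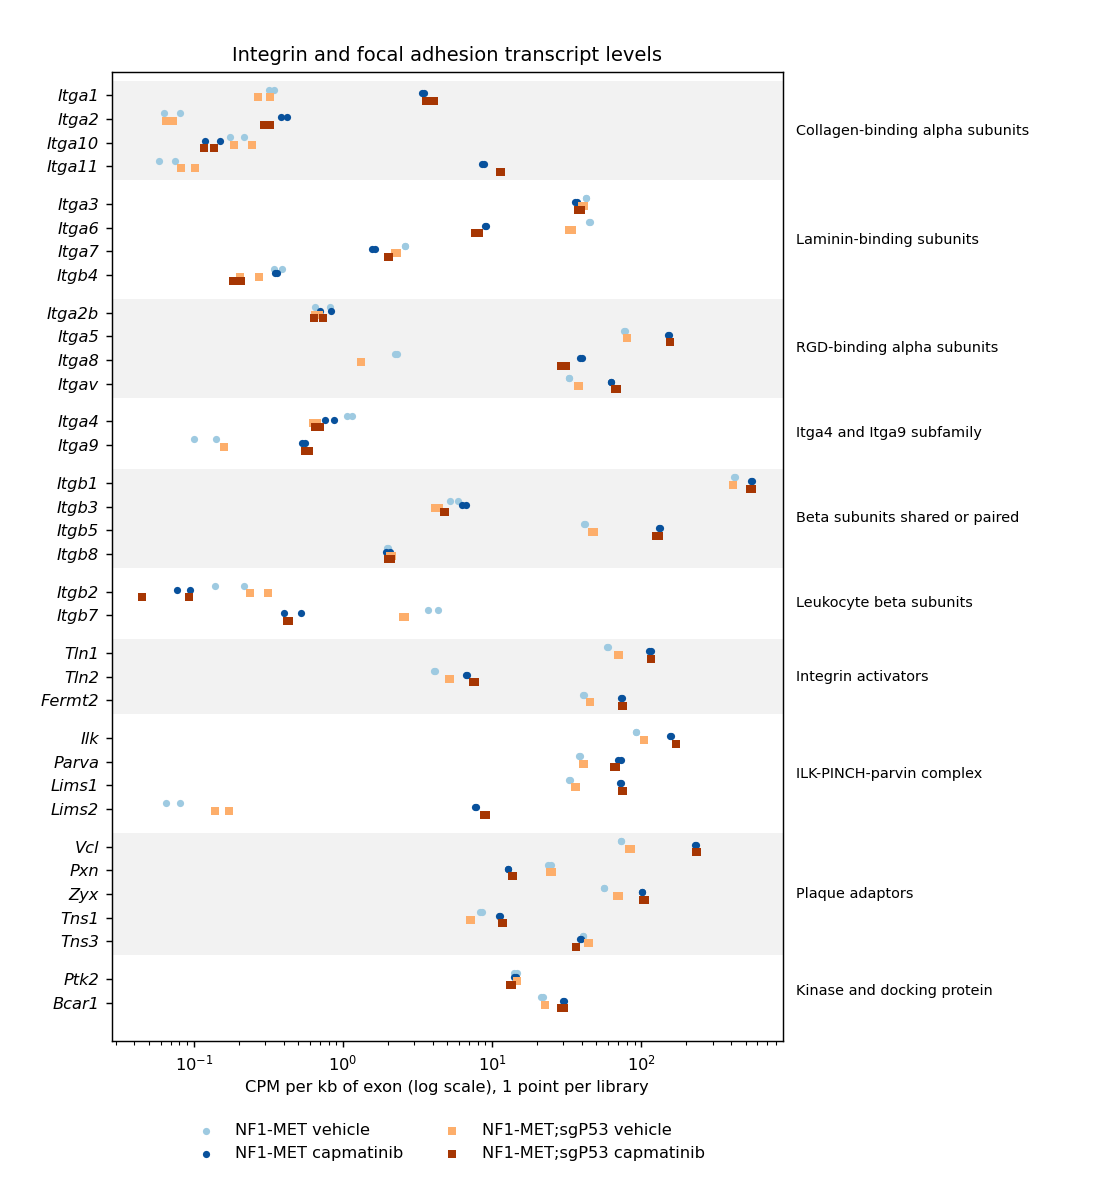
Level of each tested gene in each library, in CPM per kb of exon on a log axis, grouped by role. Each point is 1 library, circles are NF1-MET and squares NF1-MET;sgP53, and dark symbols are capmatinib. *Itga11*, *Lims2*, *Itga8* and *Itga1* show the widest gaps from vehicle to capmatinib, and *Itga6* and *Itgb7* the widest in the other direction.

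Most of the set was higher after 24 h of MET inhibition, in both lines. In NF1-MET cells 21 of 34 genes were called higher and 8 lower at an adjusted p under 0.05, against 35.5% of all genes called higher and 34.7% lower. In the sgP53 line 21 were called higher and 9 lower, against backgrounds of 34.2% and 33.4%. With library totals in place of TMM factors the counts were 20 and 11 in NF1-MET, against 24.2% and 44% of all genes, and 20 and 8 with sgP53, against 22.5% and 34%. The 21 genes called higher were the same in both lines, and 7 were called lower in both. The 2 contrasts have no library in common, and where a change is given as a pair of values the first is for NF1-MET. The median log2 fold change of the 34 genes was 0.57 in each line, where the medians over all tested genes were 0.00204 for NF1-MET and 0.00486 for NF1-MET;sgP53. Changes of at least 2-fold were called upward for 9 genes and downward for 3 in each line. The share of all genes called with a rise of that size was 11.5% for NF1-MET and 10.4% for NF1-MET;sgP53, and with such a fall 5.35% and 5.02%.

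**Figure D2:**
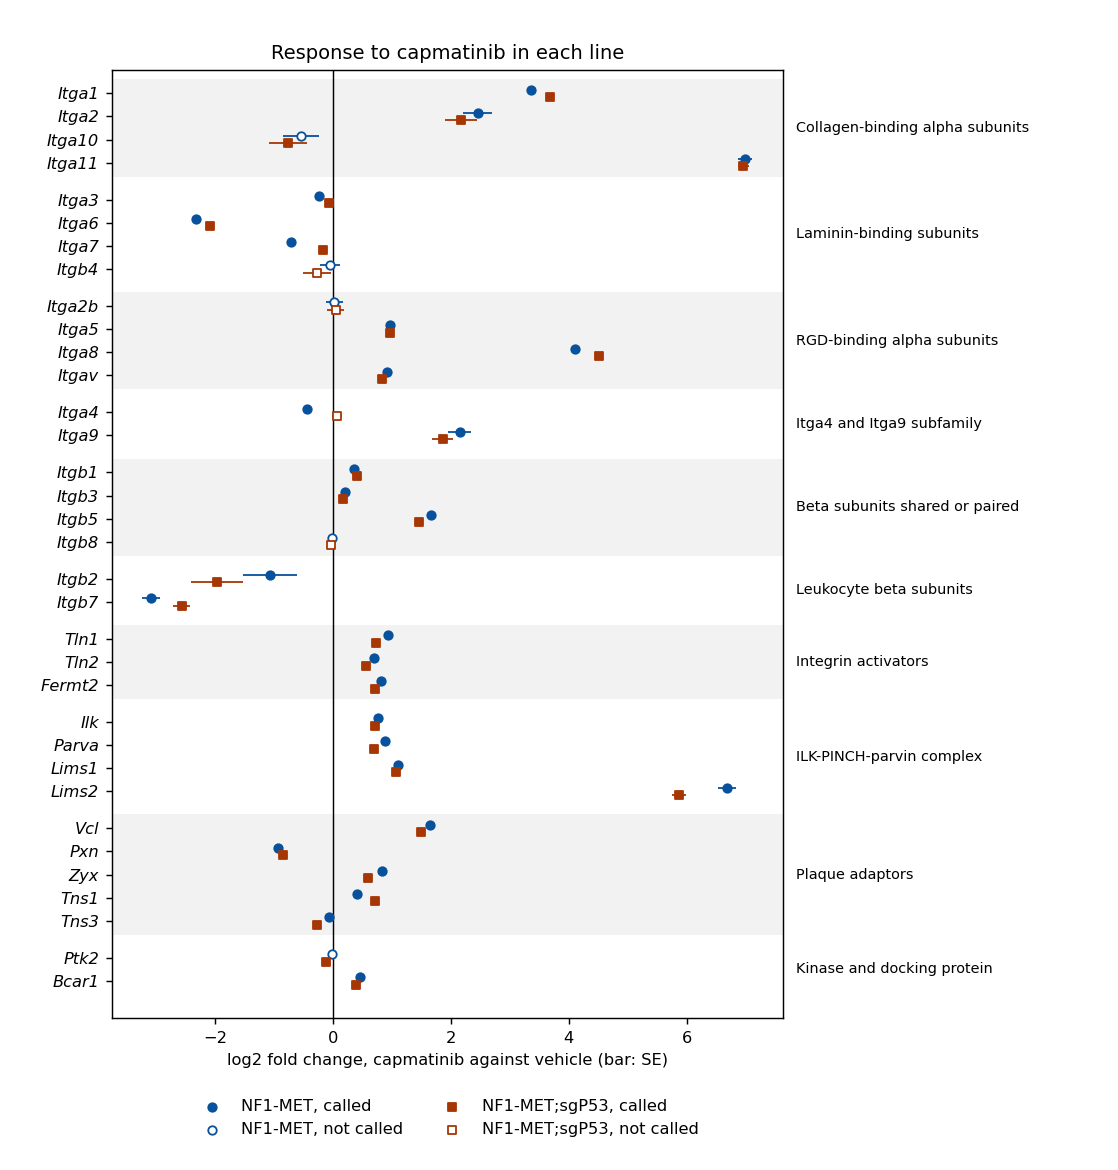
Log2 fold change from vehicle to capmatinib for the 34 tested genes, with circles for NF1-MET and squares for NF1-MET;sgP53. Bars are standard errors, filled symbols were called at an adjusted p under 0.05 and open symbols were not. The 21 genes called higher lie right of 0 in both lines, led by *Itga11* and *Lims2* at log2 values between 5.87 and 6.99.

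The receptors for collagen gave the widest change. *Itga11*, the alpha subunit of a receptor for fibrillar collagen (ENSMUSG00000032243, at chr9:62677826-62783982 in mm10, plus strand), was near the detection limit in vehicle at 0.386 and 0.301 CPM in NF1-MET and 0.524 and 0.421 CPM in NF1-MET;sgP53. In capmatinib it reached 45.2 and 43.7 CPM in NF1-MET and 59.1 and 58.1 CPM in NF1-MET;sgP53. Every capmatinib library thus exceeded every vehicle library by far, on vehicle counts of 12 to 18 per library. The log2 fold change was 6.99 ± 0.12 (SE) in NF1-MET, or 127-fold (edgeR quasi-likelihood, adjusted p = 1.03e-30), and 6.96 ± 0.0966 in NF1-MET;sgP53, or 125-fold (adjusted p = 6.86e-24). *Itga1*, which prefers network-forming collagens, was measured at 6.39 and 5.94 CPM in NF1-MET vehicle and at 63.1 and 65.0 CPM in NF1-MET capmatinib. In the sgP53 line it went from 4.98 and 6.02 CPM to 75.2 and 66.8 CPM. Its groups did not overlap, and the rises were 10.3-fold (adjusted p = 5.98e-30) and 12.8-fold (adjusted p = 3.77e-21). *Itga2*, another collagen receptor, rose 5.47-fold in NF1-MET and 4.49-fold in NF1-MET;sgP53, but from between 0.451 and 0.579 CPM in vehicle to capmatinib means of only 2.87 CPM in NF1-MET and 2.22 CPM in NF1-MET;sgP53. *Itga10*, a cartilage-associated collagen receptor, stayed between 0.606 and 1.26 CPM. Its log2 change was -0.54 ± 0.307 in NF1-MET, not called (adjusted p = 0.116), and -0.77 ± 0.315 in NF1-MET;sgP53, called lower (adjusted p = 0.0359). The call in NF1-MET;sgP53 was lost under the DESeq2 Wald test (adjusted p = 0.156), and 1739 of its 5186 exon bases lie under another gene on the same strand. All 4 collagen-binding subunits pair with *Itgb1*.

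The laminin receptors went the other way: none of the 4 subunits was called higher and 3 were called lower in each line. *Itga6*, a laminin receptor known from epithelia and nerve (ENSMUSG00000027111, at chr2:71745616-71858416, plus strand), stood at 408 and 402 CPM in NF1-MET vehicle and at 81.2 and 81.9 CPM after capmatinib. In NF1-MET;sgP53 it stood at 309 and 297 CPM in vehicle and at 69.4 and 73.1 CPM in capmatinib. The lowest vehicle library (297 CPM) stood far above the highest capmatinib library (81.9 CPM). The log2 fold change was -2.33 ± 0.0262 in NF1-MET (5.02-fold lower, adjusted p = 1.07e-35) and -2.09 ± 0.0355 in NF1-MET;sgP53 (4.25-fold lower, adjusted p = 2.50e-22). *Itga7*, the laminin receptor of muscle and nerve, moved less, from 21.1 and 21.0 CPM to 13.2 and 12.7 CPM in NF1-MET and from 17.98 and 18.7 to 16.6 and 16.2 CPM in NF1-MET;sgP53. The fall was 1.65-fold in NF1-MET (adjusted p = 4.69e-11) and 1.12-fold in NF1-MET;sgP53 (adjusted p = 0.0345), and the call in NF1-MET;sgP53 was lost under the DESeq2 Wald test (adjusted p = 0.159). *Itga3*, which also binds laminins and remained among the more abundant alpha subunits, was called lower by 1.18-fold in NF1-MET and by 1.05-fold in NF1-MET;sgP53. The smaller of these was not called with DESeq2 (adjusted p = 0.0596) or with library totals (adjusted p = 0.114). *Itgb4*, the partner of *Itga6* in hemidesmosomes, was at 1.28 to 2.76 CPM over the libraries and was not called in either line.

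Among the alpha subunits that recognize the Arg-Gly-Asp motif, 3 of 4 rose in each line. *Itga8*, a receptor for nephronectin and fibronectin found on contractile and kidney mesenchymal cells (ENSMUSG00000026768, at chr2:12106632-12301922, minus strand), was at 16.8 and 16.5 CPM in NF1-MET vehicle and at 293 and 285 CPM in capmatinib. In NF1-MET;sgP53 the values were 9.75 and 9.67 CPM in vehicle and 229 and 213 CPM in capmatinib. No vehicle library came near a capmatinib library, and the 2 lines kept their order in both treatments. The rise was 4.10 ± 0.0363 in log2 (17.2-fold, adjusted p = 1.54e-38) in NF1-MET and 4.51 ± 0.0481 (22.8-fold, adjusted p = 6.21e-26) in NF1-MET;sgP53. *Itga5*, the fibronectin receptor and the most abundant alpha subunit, went from 383 and 378 CPM to 748 and 760.3 CPM in NF1-MET and from 394 and 397 to 770.1 and 773 CPM in NF1-MET;sgP53. These were rises of 1.96-fold and 1.95-fold (adjusted p = 1.86e-27 and 8.10e-19). *Itgav*, which serves as the alpha chain of the vitronectin receptors and of receptors that activate latent TGF-beta, rose 1.89-fold and 1.78-fold. *Itga2b*, the platelet subunit, stayed between 3.47 and 4.52 CPM with groups that overlapped and was not called in either line. Of 4 platelet and megakaryocyte markers, *Pf4* and *Gp9* had 0 counts throughout and *Ppbp* 11 counts over all libraries, while *Gp1bb* was at 0.675 and 0.627 CPM in the vehicle means and at 2.11 and 2.44 CPM in the capmatinib means. Of the subfamily that binds VCAM1 and other non-collagen ligands, *Itga9* rose 4.43-fold and 3.63-fold, from between 0.771 and 1.22 CPM to between 4.08 and 4.58 CPM. *Itga4* fell by 0.44 ± 0.0797 on the log2 scale in NF1-MET, from 16.1 and 14.8 to 10.7 and 12.2 CPM. In NF1-MET;sgP53 it started at 9.34 and 8.73 CPM and was at 9.85 and 9.01 CPM after capmatinib (log2 0.06 ± 0.0898, adjusted p = 0.546).

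The beta subunits did not move as a group. *Itgb5*, which pairs with *Itgav*, was at 147 and 149 CPM in NF1-MET vehicle and at 469 and 471 CPM in capmatinib, and at 170.0 and 165 CPM against 448 and 466 CPM in NF1-MET;sgP53. The groups stood apart in both lines, with rises of 3.15-fold (log2 1.65 ± 0.0242, adjusted p = 1.25e-32) and 2.73-fold (1.45 ± 0.0317, adjusted p = 2.21e-20). *Itgb1* rose by 0.36 ± 0.0166 and 0.40 ± 0.0197 on the log2 scale, a smaller relative change at a much higher level, from 1728 and 1718 to 2255 and 2221 CPM in NF1-MET. *Itgb3*, the other classic partner of *Itgav*, was called higher by 1.15-fold and 1.12-fold, and neither call held when raw library totals replaced TMM scaling (adjusted p = 0.816 and 0.795). *Itgb8*, an activator of latent TGF-beta, stayed between 21.5 and 23.5 CPM in all libraries and was not called. The 2 beta subunits known from leukocytes fell. *Itgb7* went from 12.1 and 10.2 CPM to 1.12 and 1.46 CPM in NF1-MET, 8.54-fold lower (adjusted p = 1.42e-18), and from 7.24 and 6.98 to 1.16 and 1.21 CPM in NF1-MET;sgP53, 5.96-fold lower (adjusted p = 8.72e-13). *Itgb2* rested on 5 to 33 counts per library, and was called lower by 3.93-fold in NF1-MET;sgP53 (adjusted p = 0.000473), a call kept in all 12 alternatives that tested it. Its fall in NF1-MET was -1.07 in log2 (adjusted p = 0.0392), a call lost in 6 of 12 alternatives, the DESeq2 Wald test among them (adjusted p = 0.187). The leukocyte markers *Cd52*, *Tyrobp* and *Cd3e* had 0 counts in every library, and all 6 leukocyte markers summed to at most 2.92 CPM. Of the detected ones, *Cd68* was at 1.73 and 1.49 CPM in the vehicle means and at 0.913 and 0.965 CPM in capmatinib, and *Laptm5* at 0.91 and 0.251 against 0.481 and 0.181 CPM. *Ptprc*, on 18 counts in all, was at 0.0251 and 0.0291 against 0.127 and 0.0697 CPM. The part of these markers in the fall of *Itgb7* and *Itgb2* was not tested. *Itgad*, *Itgae*, *Itgal*, *Itgam* and *Itgax*, the remaining integrin subunits and all leukocyte alpha chains, did not reach the count minimum.

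These shifts altered which receptors made up the integrin transcript pool. Summed over the 13 alpha subunits, the level was 205 and 204 CPM per kb in NF1-MET vehicle and 315 and 318 in capmatinib, and 199 and 198 against 321 and 319 in NF1-MET;sgP53. The beta sum moved alongside, from 478 and 474 to 694 and 686 CPM per kb in NF1-MET, and from 467 and 468 to 682 and 675 in NF1-MET;sgP53. *Itga6* held 22.03% and 21.82% of the alpha sum in NF1-MET vehicle and 2.85% in each capmatinib library. In NF1-MET;sgP53 its share was 17.2% and 16.6% in vehicle and 2.39% and 2.54% in capmatinib. Over the same step *Itga8* went from 1.11% and 1.09% to 12.6% and 12.2% in NF1-MET and from 0.667% and 0.663% to 9.68% and 9.07% in NF1-MET;sgP53. *Itga5* widened its lead from 37.8% and 37.5% to 48.1% and 48.5% in NF1-MET, while *Itga3* shrank from 20.6% and 20.9% to 11.5% and 11.6%. Among beta subunits *Itgb1* went from 88.7% and 88.8% to 79.6% and 79.3% in NF1-MET, and *Itgb5* from 8.64% and 8.84% to 19.0% and 19.3%. The shares use annotated exon length and not the isoforms expressed, and they describe RNA and not receptor protein at the surface.

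**Figure D3:**
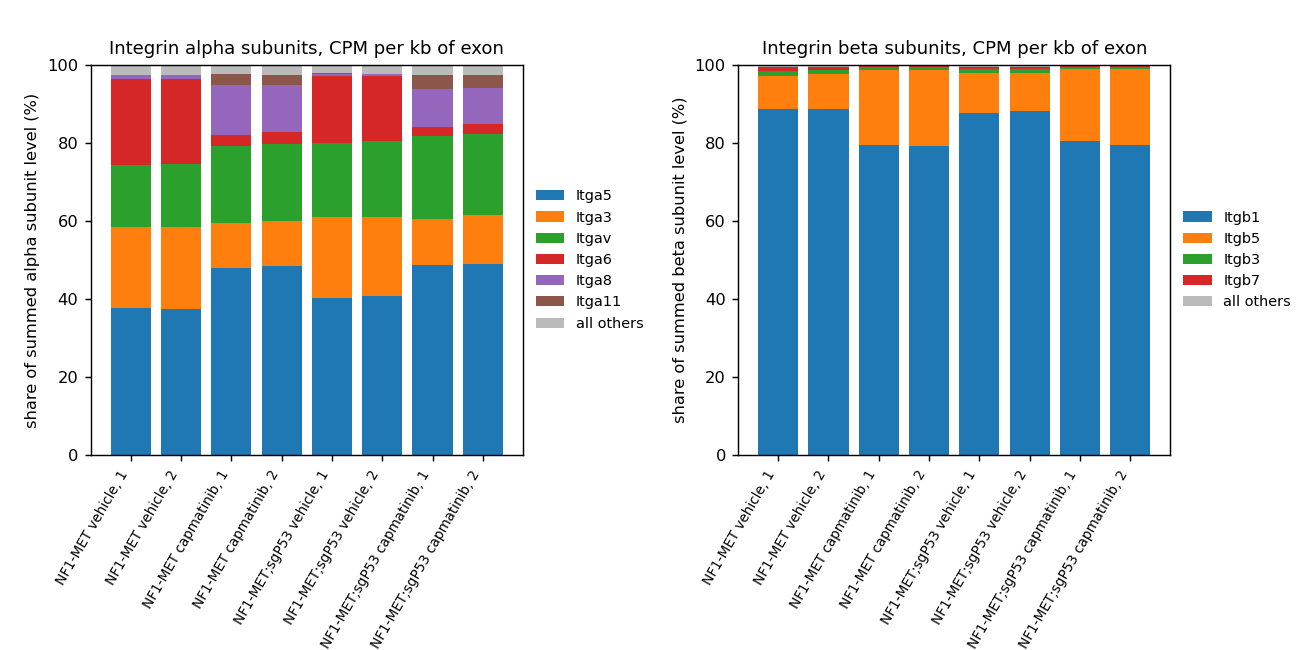
Share of each integrin subunit in the summed alpha (left) or beta (right) subunit level of each library, in percent of CPM per kb of exon, with 1 bar per library. In both lines the *Itga6* segment shrinks to between 2.39% and 2.85% and the *Itga8* segment grows to between 9.07% and 12.6% with capmatinib.

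Transcripts of the proteins that switch integrins on from inside the cell rose together. *Tln1*, or talin 1, was at 576 and 582 CPM in NF1-MET vehicle and at 1106 and 1129 CPM in capmatinib, and at 682 and 697 against 1139 and 1143 CPM in NF1-MET;sgP53. The fold changes were 1.91 (adjusted p = 7.30e-28) and 1.66 (adjusted p = 2.60e-17). Its paralog *Tln2* rose 1.61-fold and 1.47-fold, and *Fermt2*, the kindlin of non-epithelial cells, rose 1.76-fold and 1.64-fold. All 3 tested activators were thus called higher in each line. *Tln2* made up 6.50% to 6.89% of the 2 talins per kb in vehicle and 5.52% to 6.20% in capmatinib.

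The ILK-PINCH-parvin complex, which ties beta tails to actin, has 4 genes in the set, *Ilk*, *Parva*, *Lims1* and *Lims2*, and all 4 rose, while *Parvb*, a parvin outside the set described further on, fell. *Ilk* rose 1.69-fold (adjusted p = 8.70e-24) and 1.64-fold (adjusted p = 1.03e-15), although 2461 of its 2744 exon bases overlap genes on the opposite strand and the strand setting of the counts is not stated. *Parva*, or alpha-parvin, rose 1.83-fold and 1.62-fold, and *Lims1*, or PINCH1, 2.15-fold and 2.08-fold. *Lims2*, or PINCH2, was at 0.248 and 0.201 CPM in NF1-MET vehicle, on 9 and 8 counts, and at 23.7 and 23.6 CPM in capmatinib. In NF1-MET;sgP53 it went from 0.524 and 0.421 CPM to 27.1 and 27.9 CPM. The highest vehicle library was at 0.524 CPM and the lowest capmatinib library at 23.6 CPM. The log2 fold change was 6.69 ± 0.155 in NF1-MET (103-fold, adjusted p = 4.59e-27) and 5.87 ± 0.126 in NF1-MET;sgP53 (58.4-fold, adjusted p = 1.66e-20). *Lims1* nevertheless remained the main form, since *Lims2* made up 0.197% to 0.477% of the pair per kb in vehicle and 9.65% to 10.7% in capmatinib.

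The adaptors of the adhesion plaque split. *Vcl*, or vinculin, which binds talin and actin under tension (ENSMUSG00000021823, at chr14:20929398-21033676, plus strand), was at 603 and 595 CPM in NF1-MET vehicle and at 1884 and 1897 CPM in capmatinib. The sgP53 line had 676 and 695 CPM in vehicle and 1943 and 1918 CPM in capmatinib. The lowest capmatinib library (1884 CPM) lay far above the highest vehicle library (695 CPM). The log2 rise was 1.64 ± 0.0188 (3.12-fold, adjusted p = 1.58e-35) and 1.49 ± 0.0226 (2.82-fold, adjusted p = 3.15e-23). Of its 8191 exon bases, 2090 overlap *Ap3m1* on the opposite strand. *Zyx*, or zyxin, which gathers at tensed actin fibers, rose 1.77-fold and 1.51-fold. *Tns1*, a tensin of fibrillar adhesions, rose 1.33-fold and 1.63-fold. Its paralog *Tns3* was called lower by 1.05-fold and 1.22-fold, and the share of *Tns1* in the 2 tensins per kb lay between 13.9% and 17.4% in vehicle and between 22.2% and 24.7% in capmatinib. The NF1-MET call for *Tns3* was lost when all 8 libraries were fitted in 1 model (adjusted p = 0.0559). *Pxn*, or paxillin, the scaffold for focal adhesion kinase, fell further than *Tns3*, from 193 and 203 CPM to 105 and 104 CPM in NF1-MET and from 199 and 207 to 111 and 114 CPM in NF1-MET;sgP53. The fall was 1.92-fold (adjusted p = 2.93e-23) and 1.81-fold (adjusted p = 8.14e-16).

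Of the kinase and its docking protein, the docking protein rose and the kinase did not. *Ptk2*, which encodes focal adhesion kinase, was at 172 and 166 CPM in NF1-MET vehicle and 169.5 and 166 CPM in capmatinib, with a log2 difference of -0.03 ± 0.0278 (adjusted p = 0.408). In the sgP53 line *Ptk2* was called lower by 1.09-fold (adjusted p = 0.00159), from 173 and 172 to 161 and 157 CPM. *Bcar1*, or p130Cas, rose 1.37-fold and 1.31-fold. Activity of the kinase, which depends on phosphorylation, was not measured by these data.

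The sequences just before the starts of 3 strongly raised genes are printed to show what the genome holds there. *Itga11* and *Itga8* were the integrins with the largest rises, and *Vcl* was chosen after a motif search. Each is the 250 bases before the RefSeq start in GRCm38.p6, at chr9:62677605-62677854 on the plus strand for *Itga11*, chr2:12301945-12302194 on the minus strand for *Itga8* and chr14:20929148-20929397 on the plus strand for *Vcl*. Capitals mark matches to the motifs searched on both strands.
Itga11: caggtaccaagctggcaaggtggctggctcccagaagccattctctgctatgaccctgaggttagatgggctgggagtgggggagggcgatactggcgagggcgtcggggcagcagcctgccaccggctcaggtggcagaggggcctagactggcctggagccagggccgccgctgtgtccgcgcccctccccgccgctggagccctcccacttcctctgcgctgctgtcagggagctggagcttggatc
Itga8: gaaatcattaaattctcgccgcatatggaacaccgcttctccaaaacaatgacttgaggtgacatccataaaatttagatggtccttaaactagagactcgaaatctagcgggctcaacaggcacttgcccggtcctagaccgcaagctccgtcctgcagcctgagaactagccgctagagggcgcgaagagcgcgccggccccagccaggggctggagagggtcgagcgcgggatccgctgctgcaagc
Vcl: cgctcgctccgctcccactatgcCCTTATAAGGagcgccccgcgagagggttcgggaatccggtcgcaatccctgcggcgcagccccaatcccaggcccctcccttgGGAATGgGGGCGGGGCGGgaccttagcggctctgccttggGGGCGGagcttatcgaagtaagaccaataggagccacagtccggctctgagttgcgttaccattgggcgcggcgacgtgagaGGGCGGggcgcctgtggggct
The motifs were the CArG box (the site of serum response factor), GGAATG (TEAD factors), TGANTCA (AP-1), GGGCGG (GC box) and CAGCTG (an E-box). *Vcl* held a CArG box 227 to 218 bases before the start, a GGAATG at 143 to 138 and 4 GC boxes, of which those at 136 to 131 and 131 to 126 share a base. Neither integrin window held a match, which says only that these letters are absent there. RefSeq windows of 300 bases, 250 before and 50 after the start, were matched for 26 of the 36 genes, 32 windows in all since some genes have more than 1 start. A CArG box lay in 3 of the 32, those of *Fermt2*, *Itgb6* and *Vcl*, against 1.63% of all 32851 windows. GGAATG lay in 3 of the 32 (14.7% of all windows), TGANTCA in 3 (7.81%), GGGCGG in 18 (35.7%) and CAGCTG in 7 (16.3%). Of the 3 genes with a CArG box, *Vcl* and *Fermt2* rose in both lines and *Itgb6* was below the count minimum.

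Differences between the lines were smaller, and none that was called reached 2-fold. In vehicle, 11 of 34 genes were called higher and 10 lower in NF1-MET;sgP53 than in NF1-MET, against 10.9% and 12.3% of all genes. With raw library totals in place of TMM the counts were 7 and 6, against 8.84% and 5.13%. Of the 10 genes called lower, 9 were integrin subunits. *Itga8* was at 9.75 and 9.67 CPM in NF1-MET;sgP53 against 16.8 and 16.5 CPM in NF1-MET, a log2 difference of -0.80 ± 0.0737 (adjusted p = 7.01e-08). *Itga4* differed by -0.80 ± 0.0798 (adjusted p = 2.27e-07), *Itgb7* by -0.67 ± 0.0954, *Itga6* by -0.44 ± 0.0261 (adjusted p = 1.06e-10) and *Itgb3* by -0.40 ± 0.0606. *Itgb4* differed by -0.66 ± 0.198, a call lost under the DESeq2 Wald test (adjusted p = 0.135). *Tns1* was lower by -0.24 ± 0.0304, *Itga7* by -0.21, *Itga3* by -0.08 and *Itgb1* by -0.06. With library totals the adjusted p was 0.0571 for *Tns1*, 0.261 for *Itga7*, 0.858 for *Itga3* and 0.985 for *Itgb1*, so none of these 4 calls held there. Over the 13 alternative settings the calls for *Itga7*, *Itga3* and *Itgb1* were lost in 5, 6 and 4.

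Of the 11 genes called higher in NF1-MET;sgP53 vehicle, 9 encode partners inside the cell. *Zyx* was at 370.3 and 379 CPM against 303 and 305 CPM in NF1-MET, a log2 difference of 0.28 ± 0.0253 (adjusted p = 4.73e-08). *Tln1* differed by 0.23 ± 0.0228, *Tln2* by 0.31 ± 0.0317, *Vcl* by 0.18 ± 0.0232 and *Ilk* by 0.16 ± 0.0255. *Fermt2*, *Lims1*, *Tns3* and *Parva* differed by between 0.08 and 0.12. *Itgav* (0.20 ± 0.0249) and *Itgb5* (0.16 ± 0.0287), which form one receptor, were the integrins in this group. With library totals the calls for *Fermt2*, *Lims1*, *Tns3* and *Parva* were lost (adjusted p = 0.0678, 0.096, 0.0929 and 0.215), and that for *Parva* was lost in 5 of the 13 alternative settings. Leaving out NF1-MET vehicle replicate 1 took the genes called lower from 10 to 6.

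With capmatinib, 8 genes were called higher and 7 lower in NF1-MET;sgP53, against 5.94% and 6.34% of all genes, and with library totals 3 and 2, against 3.71% and 0.891%. *Itga11* was at 59.1 and 58.1 CPM against 45.2 and 43.7 CPM in NF1-MET, a log2 difference of 0.40 ± 0.0396 (adjusted p = 1.18e-06). *Itga7* was higher by 0.34 ± 0.0696 where it had been lower in vehicle, a vehicle call lost in 5 of 13 alternative settings. The call for *Itga7* in capmatinib was lost under the DESeq2 Wald test (adjusted p = 0.0515). *Lims2* (0.22), *Tln2* (0.18), *Itga1* (0.15), *Ilk* (0.12), *Itgav* (0.11) and *Pxn* (0.10) were the others called higher. The 8 higher calls were 4 integrins and 4 partners, and the 7 lower calls 5 integrins and 2 partners. *Itgb3* was lower by -0.44 ± 0.0502 (adjusted p = 7.12e-06), *Itga8* by -0.39 ± 0.0332 (adjusted p = 2.25e-07), *Itgb4* by -0.87 ± 0.202, *Itga4* by -0.29 and *Itga6* by -0.19. *Parva* (-0.10) and *Tns3* (-0.09) turned sign with library totals. Of the 15 calls, only those for *Itga11* and *Itgb3* held under all 13 alternative settings.

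**Figure D4:**
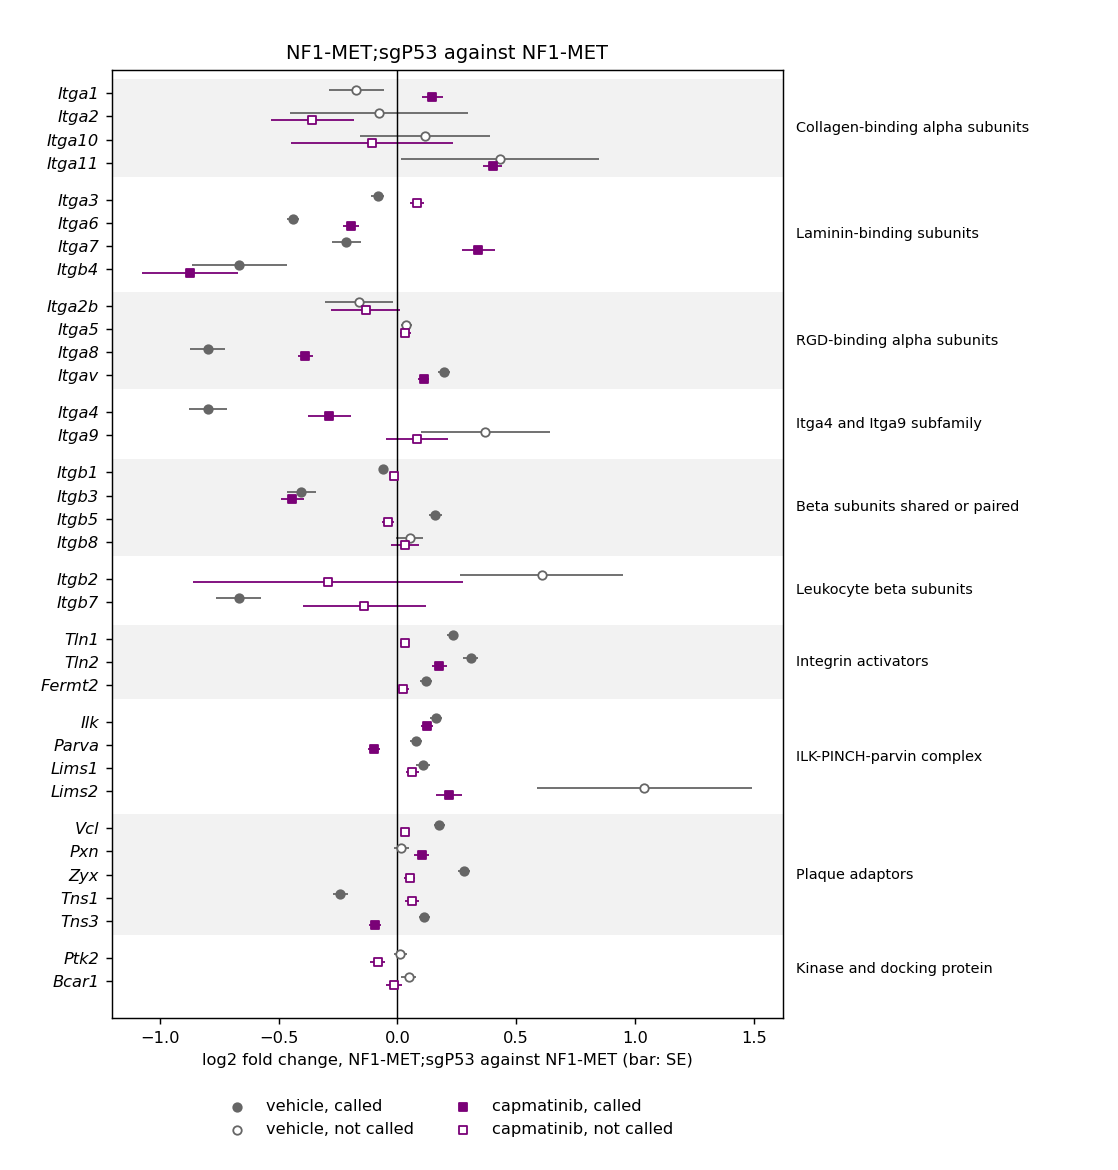
Log2 difference between NF1-MET;sgP53 and NF1-MET in vehicle (grey circles) and in capmatinib (purple squares) for the 34 tested genes. Bars are standard errors, filled symbols were called at an adjusted p under 0.05 and open symbols were not. Called differences lie between -0.87 and 0.40, and *Itgb3*, *Itgb4*, *Itga4*, *Itga6* and *Itga8* lie left of 0 in both treatments.

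The interaction of line and treatment asks whether the response itself differed between the lines. It was called for 14 of the 34 genes, 6 with a more positive and 8 with a more negative response in NF1-MET;sgP53, against 3.85% and 5.86% of all genes. This split depended on scaling: with library totals 4 were called more positive and 0 more negative (1.32% and 0.848% of all genes), and with *Gm42418* left out 6 and 6 (6.02% and 4.22%). At an unadjusted p under 0.05 the interaction reached 8 of the 34 genes with library totals and 18 with TMM factors. The share of all genes at that threshold was not counted, so these 2 counts have no background. The more positive were *Itga7* (0.54 ± 0.0914, adjusted p = 0.000252), *Itga4* (0.49 ± 0.121), *Itga8* (0.39 ± 0.0645, adjusted p = 0.000166), *Tns1* (0.28 ± 0.0427, adjusted p = 6e-05), *Itga6* (0.23 ± 0.0433) and *Itga3* (0.15 ± 0.0394). *Itga8* and *Tns1* rose further in NF1-MET;sgP53, and the 4 others fell less or were not called there. The more negative were *Zyx* (-0.25 ± 0.0354, adjusted p = 2.3e-05), *Tns3* (-0.23 ± 0.0349), *Tln1* (-0.22 ± 0.0308), *Itgb5* (-0.22 ± 0.0388), *Parva* (-0.20 ± 0.0367), *Vcl* (-0.17 ± 0.0285), *Tln2* (-0.15 ± 0.044) and *Fermt2* (-0.12 ± 0.0362). All but *Tns3* rose in both lines, by less in NF1-MET;sgP53. The interaction shares its vehicle libraries with the line contrast in vehicle, where *Zyx* differed by 0.28 and *Itga8* by -0.80, so the values of the 2 contrasts are not independent. The calls for *Itga7*, *Itga8* and *Tns1* held under all 16 alternative settings, and 10 of the 14 were lost with library totals.

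Other genes of the adhesion pathway were counted from lists drawn up by function. Values in pairs are log2 fold changes, NF1-MET first, and the genes named are those with the largest called changes among genes of at least 10 CPM in the group with the higher mean. The share of all genes called with capmatinib was 35.5% higher and 34.7% lower for NF1-MET, and 34.2% and 33.4% with sgP53, which is the background for every list here. Of 23 further actin-linking adaptors, 20 were called higher in each line, while 3 fell in the first line and 2 in the second (medians 1.19 and 1.10 in log2). The largest rises were *Sorbs2* (3.88 and 3.64), a vinculin-binding adaptor, *Ldb3* (3.70 and 3.14), a muscle Z-disc protein, and *Csrp1* (2.49 and 2.13), a LIM protein of actin fibers. *Tes*, or testin, which binds zyxin, fell by 0.82 and 0.57. In NF1-MET;sgP53 vehicle 15 of these adaptors were called higher and 3 lower than in NF1-MET, against 10.9% and 12.3% of all genes. *Flnc* (0.52), *Csrp1* (0.42) and *Lpp* (0.38) were among those higher, and *Sorbs2* (0.77) and *Ldb3* (0.52) were called too, at means under 10 CPM in vehicle. In capmatinib 5 were called higher and 7 lower, against 5.94% and 6.34%. The interaction was called more positive for 1 and more negative for 10, against 3.85% and 5.86%. The list counts use TMM factors and were not repeated with library totals, where 0.848% of all genes were called more negative.

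The 28 genes of adhesion signaling lay closer to that background, with 8 called higher and 12 lower in NF1-MET and 9 each way in NF1-MET;sgP53. Among those of at least 10 CPM, *Nedd9*, a *Bcar1* paralog (1.30 and 1.495), *Fyn* (0.73 and 0.64) and *Cav1* (0.51 and 0.65) rose, while *Pak1* (-0.47 and -0.51), *Dock1* (-0.40 and -0.41) and *Csk* (-0.35 and -0.38) fell. *Cass4*, another paralog of *Bcar1*, was called higher by 4.25 and 3.83 at means of at most 1.56 CPM, and *Efs*, a further paralog at similarly low levels, was called lower (-2.64 and -2.07). Of 23 tested integrin partners, 12 were called higher in each line and 6 and 5 lower. *Parvb*, or beta-parvin, the paralog of *Parva*, fell by 1.80 and 1.69 on the log2 scale, from 234 to 67.7 CPM in the means of NF1-MET. *Rsu1*, which binds PINCH1, rose by 1.38 and 1.22. *Cd9*, a tetraspanin that associates with laminin-binding integrins, fell by 1.04 and 0.78, and in vehicle it was lower in NF1-MET;sgP53 by -0.76 ± 0.0271.

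Of 24 tested extracellular ligands, 18 were called higher in each line and 6 and 5 lower. *Postn*, a matricellular ligand of *Itgav* receptors, rose by 4.95 and 4.37 on the log2 scale, *Ccn2* by 3.32 and 2.37 and *Col1a1*, a chain of the collagen bound by the *Itga11* receptor, by 2.64 and 2.21. Among the lower calls was *Spp1*, or osteopontin, an Arg-Gly-Asp ligand (-1.81 and -1.59). The interaction was called more positive for 6 ligands and more negative for 11, against 3.85% and 5.86% of all genes. These counts, too, were made with TMM factors only. *Tgfb1* (0.38) and *Lama5*, a laminin chain (0.35), were among the more positive, and the more negative included *Ccn2* (-0.97 ± 0.0268, adjusted p = 2.19e-18), *Postn* (-0.59 ± 0.0651) and *Ccn1* (-0.58 ± 0.0316).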

How the data were processed

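Raw gene counts were deposited by the authors, as whole numbers with no normalization or filter. As their methods and the submitters' processing notes state, poly(A) libraries were read as pairs, demultiplexed with bcl2fastq 1.9.0, trimmed with Trim Galore 0.4.2, checked with FastQC 0.11.7 and mapped to mm10 with STAR 2.5.2b, which also counted. The strand setting and annotation release are not given in the sources used here. Exons and overlaps came from GENCODE M21 (50376 of 50600 identifiers found), and promoter sequence from RefSeq (GRCm38.p6).

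Genes that reached 10 counts in 2 or more libraries, and had counts in 2 or more libraries of the contrast, were tested with edgeR 4.0.16 in R 4.3.3 (TMM factors, the original quasi-likelihood F-test, Benjamini-Hochberg adjustment over all genes tested, threshold 0.05). The 4 pairwise contrasts used their own libraries, and the interaction all 8. Standard errors were derived from the F statistic. Alternatives included DESeq2 1.42.0. The procedure was tested on simulated counts. Squared differences between replicates had a median of 1.54 to 1.78 times sampling noise, so no library was counted as a duplicate. Floors of 3 counts cover counting error only.

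The 36 genes and the lists were chosen with earlier results of these data known. All 36 genes are named or counted. From each list the text names called genes with the largest rises or falls, at most 3 each, provided the group with the higher mean reached 10 CPM, except that *Cass4*, *Efs*, *Sorbs2* and *Ldb3* were also named under it after their values were seen, and which comparisons are described for a list was chosen after the values were seen. Printed promoters are those of the 2 largest integrin rises, plus *Vcl*, chosen after the motif search. That of *Lims2*, which is not an integrin and rose more than *Itga8*, is not reported here. *Itga6* had no matched window. Other list genes are counted without values, and a few are not reported here.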

Additional observations from a re-analysis of the deposited data

Results flagged for a closer look

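The response to capmatinib differed between the lines for 14 of the 34 tested genes by the interaction term of edgeR's quasi-likelihood test (adjusted p under 0.05 over 14497 genes), and each is given here as the log2 response in NF1-MET;sgP53 minus that in NF1-MET. The difference was 0.54 for *Itga7*, 0.49 for *Itga4*, 0.39 for *Itga8*, 0.28 for *Tns1*, 0.23 for *Itga6* and 0.15 for *Itga3*. It was -0.25 for *Zyx*, -0.23 for *Tns3*, -0.22 for *Tln1*, -0.22 for *Itgb5*, -0.20 for *Parva*, -0.17 for *Vcl*, -0.15 for *Tln2* and -0.12 for *Fermt2*. For 4 of the 14 the call held with library totals in place of TMM factors. With 2 libraries a group, no sample was compared with the rest of its group as a possible outlier.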

How the results depend on the processing

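Between vehicle and capmatinib, 26 of the 29 calls for NF1-MET and 26 of the 30 for NF1-MET;sgP53 held in every alternative that tested the gene. Of the line calls, 12 of 21 in vehicle and 2 of 15 in capmatinib did, and of the 14 interaction calls 3. Library totals ended 1 and 2 of the capmatinib calls, 8 and 10 of the line calls and 10 of the interaction calls. With library totals the median over all genes shifted to -0.184 and -0.118 in the capmatinib contrasts, to 0.0596 and 0.114 in the line contrasts and to 0.0522 in the interaction. The medians of the 34 genes became 0.387 and 0.449 for capmatinib, 0.107 and 0.143 for the lines and 0.0061 for the interaction. With the same scaling the genes called were 7 higher and 6 lower between lines in vehicle (8.84% and 5.13% of all genes). They were 3 and 2 in capmatinib (3.71% and 0.891%), and 4 and 0 in the interaction (1.32% and 0.848%). *Parva* (0.0159) and *Tns3* (0.0218) turned sign between lines in capmatinib, through the shift of all genes. Leaving out *Gm42418* moved the interaction median to -0.038, and the cause was not tested. Between lines in capmatinib, DESeq2's Wald test called 4 higher (3.01% of all genes), and testing without a low-count filter called 4 lower (2.73%). The main fit called 8 higher and 7 lower there, against 5.94% and 6.34%. Leaving out 1 library at a time gave medians of the 34 genes from 0.0306 to 0.0662 between lines in vehicle, the 0.0662 without NF1-MET vehicle replicate 1. The interaction call for *Fermt2* was lost in 14 of 16 alternatives and that for *Tln2* in 10.

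Replicate numbers were shared across groups. Deviations of same-numbered libraries correlated between -0.0536 and 0.102, and the main fits did not pair them. With a replicate block, edgeR's estimate of the spread common to all genes fell from 3.1% to 1.88% between lines in vehicle. It fell from 4.28% to 2.87% for capmatinib with sgP53 and from 3.49% to 3.1% in the interaction. The same estimate rose from 2.34% to 2.73% for capmatinib in NF1-MET and from 3.83% to 4.38% between lines in capmatinib. Pairing by number was not tested further. A fit with the replicate block called 21 higher and 7 lower for capmatinib in NF1-MET (35.3% and 34.6% of all genes). For capmatinib with sgP53 it called 21 and 9 (34.5% and 33.5%). Between lines it called 11 and 10 in vehicle (13.2% and 14.4%) and 8 and 7 in capmatinib (5.84% and 6.44%). In the interaction it called 6 and 9 (4.27% and 6.24%). Genes with a mean under 1 CPM in vehicle (*Itga11*, *Lims2*, *Itga2* and *Itgb2* in both lines, *Itga9* in NF1-MET) rest on few counts, which limits the precision of their folds. With 2 libraries a group no exact permutation test could pass 0.05, and the tests borrow their spread across genes.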
